A study of Homo sapiens with 4 samples.

Results

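The zinc finger genes of chromosome 19 are taken here as the 240 protein-coding genes of that chromosome whose symbol is ZNF followed by a number, out of 19974 protein-coding genes in the RefSeq table, and 10 further ZNF symbols of the chromosome that carry a letter or a read-through name were left out. They were examined by ATAC-seq, which marks accessible DNA by letting Tn5 transposase insert adapters into it, in AMO1. This is a multiple myeloma line of plasma cell origin, and its tissue label is blood. The 4 groups held 1 library each: a PHF19 overexpression library, from cells transfected with a PCDH vector carrying PHF19, an empty vector library, from cells labelled wild type and given the same vector without insert, and an IFN PHF19 overexpression and an IFN empty vector library, which the labels describe in the same way apart from a title prefix IFN that they do not explain. All cells went through a DNase I step before the nuclei were tagged. With 1 library per group no difference was tested. Intervals are 95% intervals: those of single genes cover counting error only, those of shares are binomial over genes and those of medians come from the ranks of regions, and none covers the spread between libraries. The deposited peaks were linked to a gene when they reached within 1000 bp of either of its ends, and the tallest such region stood for the gene. Height is the number of fragments over the summit per M (mega) fragments counted in that library's header.

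Many of these genes encode DNA-binding repressors with a row of zinc fingers and a KRAB domain. The KRAB domain recruits TRIM28, a corepressor that brings the histone methyltransferase SETDB1 and DNA methylation to repeats such as retrotransposons. The genes arose by repeated duplication, lie in long clusters on chromosome 19, and have been described as carrying repressive chromatin over their bodies while their promoters stay accessible. PHF19 is a Polycomb-like protein that recruits Polycomb repressive complexes to unmethylated CpG islands, so the CpG content of the promoters is given below beside the accessibility.

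The libraries held 18.2 M fragments with PHF19 overexpression, 27.4 M with empty vector, 16.4 M with IFN PHF19 overexpression and 65.9 M with IFN empty vector, and the lowest called peaks had 8, 10, 8 and 16 fragments in that order. A gene end without a peak was therefore one below these calls, which does not show that it was inaccessible. The project folder in the header of the IFN empty vector library is not the one that the other 3 headers share. Of 10 plasma cell marker genes, all 10 had a gene-end peak in each library, whereas 2 to 4 of 7 T and NK cell genes and 2 of 6 myeloid genes had one. No peak was found at CD3G, KLRD1, NKG7, CD14, CSF1R, LYZ or MPO. In contrast, CD3D, CD3E, CD2 and NCAM1 had one in at least 1 library, as did FCGR3A and ITGAM. Within PHF19, a narrow peak of 335 bp at chr9:120857950-120858284 was called with PHF19 overexpression at 7.90 fragments per M and with IFN PHF19 overexpression at 7.33 per M, and in neither empty vector library. Both libraries that carry the PHF19 insert thus had this peak. Because zinc finger genes are close copies of each other, the treatment of fragments that match several places bears on their values; how it was done is not stated in the labels or headers.

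Promoters of genes described below are shown in the RefSeq table's windows of 300 bases on build GRCh38.p14. They run 5′ to 3′, with CpG dinucleotides in capitals. The first set holds the genes whose height differed in the same direction, beyond counting error, in both PHF19 pairs. They were 1 higher and 2 lower of 151 regions, against 6.07% and 3.99% of all genes. The 2 lower ones were not clear of 0 in both pairs without centring or with the neighbouring median removed, as given below.
ZNF181 (chr19:34733993-34734292, + strand): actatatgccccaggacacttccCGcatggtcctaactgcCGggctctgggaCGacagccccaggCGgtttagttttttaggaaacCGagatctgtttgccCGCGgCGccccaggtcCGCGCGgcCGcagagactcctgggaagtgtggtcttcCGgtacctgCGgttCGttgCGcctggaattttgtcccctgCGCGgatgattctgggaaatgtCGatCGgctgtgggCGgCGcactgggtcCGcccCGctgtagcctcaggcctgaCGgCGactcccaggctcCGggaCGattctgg
ZNF101 (chr19:19668589-19668888, + strand): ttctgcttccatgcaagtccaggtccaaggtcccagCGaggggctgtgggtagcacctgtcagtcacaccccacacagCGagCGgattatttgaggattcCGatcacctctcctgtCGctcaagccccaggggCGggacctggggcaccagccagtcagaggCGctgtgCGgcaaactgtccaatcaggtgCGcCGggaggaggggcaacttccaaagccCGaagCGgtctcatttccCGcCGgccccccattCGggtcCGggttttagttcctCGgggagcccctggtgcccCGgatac
ZNF548 (chr19:57389604-57389903, + strand): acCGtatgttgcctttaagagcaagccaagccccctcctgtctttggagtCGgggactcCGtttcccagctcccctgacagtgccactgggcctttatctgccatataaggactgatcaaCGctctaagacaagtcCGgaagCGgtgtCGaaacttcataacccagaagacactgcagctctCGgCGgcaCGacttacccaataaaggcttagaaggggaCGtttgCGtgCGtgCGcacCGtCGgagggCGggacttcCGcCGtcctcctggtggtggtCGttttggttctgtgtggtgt
The second set holds the pair of genes called in both empty vector libraries and in neither PHF19 library, as were 1.48% of all genes with a gene-end region.
ZNF257 (chr19:22052234-22052533, + strand): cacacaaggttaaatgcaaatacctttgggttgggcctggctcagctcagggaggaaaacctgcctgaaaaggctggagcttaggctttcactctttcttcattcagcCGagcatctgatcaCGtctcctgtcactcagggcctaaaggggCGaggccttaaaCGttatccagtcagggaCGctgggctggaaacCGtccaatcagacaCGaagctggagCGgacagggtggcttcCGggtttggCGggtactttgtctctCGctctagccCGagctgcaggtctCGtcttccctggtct
ZNF230 (chr19:44002707-44003006, + strand): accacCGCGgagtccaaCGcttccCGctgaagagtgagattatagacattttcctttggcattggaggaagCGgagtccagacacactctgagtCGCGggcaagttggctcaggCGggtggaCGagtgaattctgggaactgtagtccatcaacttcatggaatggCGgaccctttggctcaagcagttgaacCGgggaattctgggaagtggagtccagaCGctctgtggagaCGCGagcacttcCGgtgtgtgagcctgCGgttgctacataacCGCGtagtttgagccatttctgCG
The third set holds genes with a CpG-rich promoter, by the limits given below, and no peak in any library.
ZNF154 (chr19:57709155-57709454, - strand): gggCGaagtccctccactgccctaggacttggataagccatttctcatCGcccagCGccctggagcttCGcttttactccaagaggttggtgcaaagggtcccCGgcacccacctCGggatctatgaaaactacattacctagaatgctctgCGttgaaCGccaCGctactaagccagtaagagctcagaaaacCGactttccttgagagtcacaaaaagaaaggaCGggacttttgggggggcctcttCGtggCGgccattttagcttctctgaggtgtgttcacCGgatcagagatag
ZNF382 (chr19:36605063-36605362, + strand): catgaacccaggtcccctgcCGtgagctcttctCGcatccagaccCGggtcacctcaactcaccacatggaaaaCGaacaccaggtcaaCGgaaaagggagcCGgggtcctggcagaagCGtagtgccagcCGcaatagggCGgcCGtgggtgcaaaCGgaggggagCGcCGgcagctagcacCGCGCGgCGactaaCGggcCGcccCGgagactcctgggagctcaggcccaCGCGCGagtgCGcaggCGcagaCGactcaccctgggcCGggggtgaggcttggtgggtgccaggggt
ZNF350 (chr19:51986791-51987090, - strand): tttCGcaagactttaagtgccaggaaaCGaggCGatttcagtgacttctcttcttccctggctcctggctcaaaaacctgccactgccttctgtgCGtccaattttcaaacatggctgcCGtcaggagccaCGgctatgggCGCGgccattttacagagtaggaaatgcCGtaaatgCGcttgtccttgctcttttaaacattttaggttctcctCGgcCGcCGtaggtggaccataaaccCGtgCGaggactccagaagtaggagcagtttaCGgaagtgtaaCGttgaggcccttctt

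Most of the zinc finger genes were accessible at an end in AMO1 cells, and nearly all of these were so in every library. A gene-end region was called for 162 of the 240 genes in any library (67.5%, 61.2 to 73.4%), against 65.8% of all protein-coding genes, 67.0% of the other 1201 genes of chromosome 19 and 78.1% of the 237 numbered ZNF genes of other chromosomes. By library, 157 genes (65.4%) had it with PHF19 overexpression, where the background was 61.5%, 160 (66.7%) with empty vector, where it was 62.2%, 158 (65.8%) with IFN PHF19 overexpression, where it was 61.8%, and 162 (67.5%) with IFN empty vector, where it was 65.1%. The same region was called in all 4 libraries for 157 genes. The 162 genes had 156 different regions, because neighbours can share one, and 24 genes had a region that touched the end of another protein-coding gene. The share of accessible genes was thus close to that of the rest of the chromosome and below that of ZNF genes elsewhere, whose interval was 72.2 to 83.2%.

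Among the widely known genes, the repressors of retrotransposons were accessible. ZNF93, which silences LINE elements, had heights of 5.82 with PHF19 overexpression, 7.13 with empty vector, 6.84 with IFN PHF19 overexpression and 6.75 per M with IFN empty vector. ZNF91, which silences SVA elements, had 3.46, 4.68, 4.58 and 4.22 per M in that order of libraries. ZNF91 thus stood near the median of the zinc finger genes and ZNF93 above it. ZNF274, which binds the far ends of other zinc finger genes and brings SETDB1 to them, had 2.52, 2.996, 2.75 and 1.93 per M, so it lay among the lower genes. ZNF808, needed for human pancreas development, was tall at 9.77, 10.96, 10.20 and 8.30 per M. ZNF568, ZNF224 and ZNF304 had mean heights of 4.80, 2.08 and 4.15 per M. The mean height of ZNF536, a neuronal regulator outside the KRAB class, was 1.15 per M, and its region lay at the far end of the gene. ZNF420, a regulator of p53, and the imprinted gene ZNF331 had peaks inside the gene only, the tallest at 4.83 and 2.22 per M. ZNF382 and ZNF350 had no peak anywhere in the gene.

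**Figure D1:**
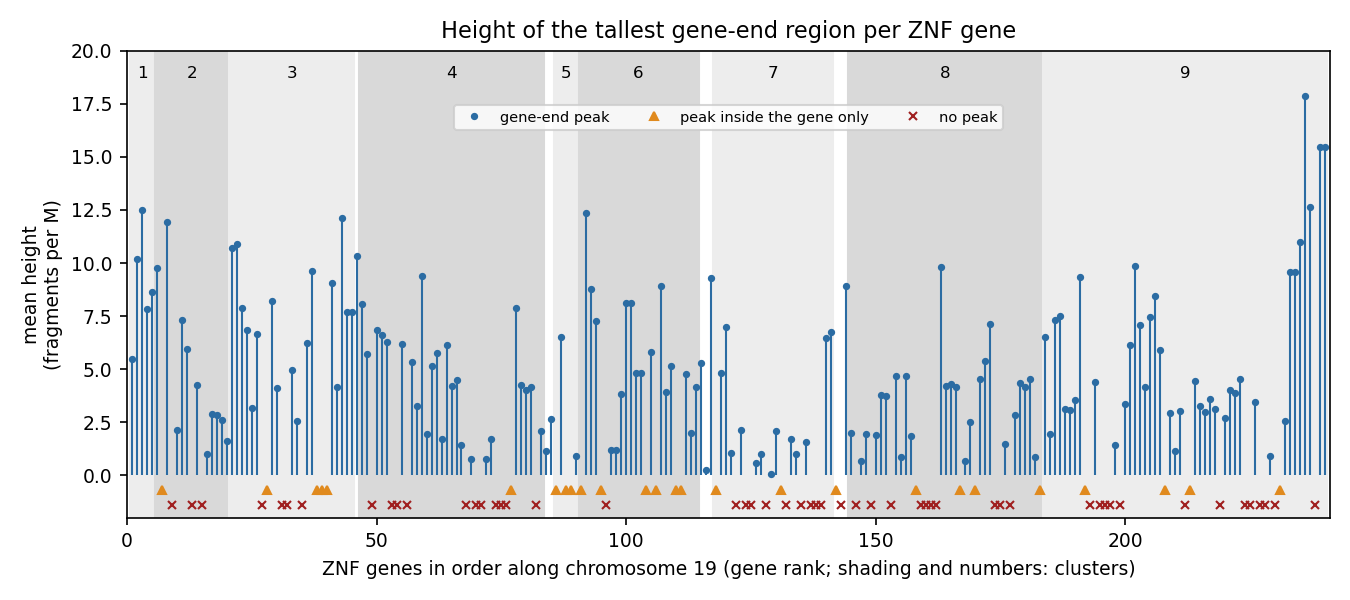
The 240 zinc finger genes in order along chromosome 19 (horizontal, gene rank), with the mean height of the tallest gene-end region over the 4 libraries in fragments per M (vertical, a library without a call counted as 0) as lines ending in points, orange triangles for the 26 genes with a peak inside the gene only and red crosses for the 52 with none; shading marks the 9 clusters. Genes of all 3 kinds lie side by side, the tallest genes stand at the right end of cluster 9, and cluster 7 is low.

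The 78 genes without a gene-end peak fell into 26 with a peak inside the gene only (10.8%) and 52 with no peak from one end to the other (21.7%). The second share was 20.6% among the other genes of chromosome 19 and 11.8% among ZNF genes elsewhere. The first 10 genes without a gene-end peak by position were ZNF358, ZNF558, ZNF177, ZNF560, ZNF439, ZNF69, ZNF433, ZNF878, ZNF625 and ZNF563. Of these, ZNF358, ZNF69 and ZNF563 had a peak inside the gene, at 1.37, 8.23 and 9.15 per M. Tall regions inside a gene were common in this class: they ranged up to 12.3 per M, at ZNF565, and for 17 of the 26 genes a peak lay within 1000 bp of the RefSeq start, which in these genes stands inside the span that the table gives.

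The zinc finger genes without any peak did not lack CpG-rich promoters, in contrast to other genes of the chromosome. RefSeq promoters were matched by gene identifier for 210 of the 240 genes. The ratio of observed to expected CpG had a median of 0.77 in the 41 promoters of zinc finger genes without a peak and 0.76 in the 146 with a gene-end peak. For the other chromosome 19 genes it was 0.28 in the 164 promoters without a peak and 0.81 in the 681 with one. For ZNF genes elsewhere the medians were 0.61 (23 promoters) and 0.84 (157 promoters). Low CpG content thus went with the lack of a peak among the other genes but not among the zinc finger genes.

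Counted the other way, among promoters with a CpG ratio of at least 0.6 and a GC content of at least 50%, 32 of 162 zinc finger genes had no peak in the gene (19.8%, 13.9 to 26.7%). The background over all protein-coding genes was 7.04%. The share was 4.72% (3.13 to 6.79%) for 27 of 572 other genes of chromosome 19 and 7.14% for 11 of 154 ZNF genes elsewhere. Among the remaining, CpG-poorer promoters, 9 of 48 zinc finger genes had no peak (18.8%), against 137 of 394 other chromosome 19 genes (34.8%). A narrower reading that asks only for a peak within 1000 bp of the RefSeq start gave a smaller gap: 39 of the 162 CpG-rich zinc finger promoters had none (24.1%, 17.7 to 31.4%), against 85 of 572 on the rest of the chromosome (14.9%, 12.05 to 18.04%) and 17 of 154 ZNF genes elsewhere (11.0%, 6.56 to 17.1%). Over all protein-coding genes it was 1781 of 10028 (17.8%), which lies inside the interval of the zinc finger genes. These intervals treat genes as independent, which duplicated neighbours are not.

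The 32 CpG-rich genes without a peak lay in 7 of the 9 clusters. Cluster 9 held 12 of them, namely ZNF582, ZNF667, ZNF470, ZNF835, ZNF549, ZNF154, ZNF587, ZNF814, ZNF418, ZNF256, ZNF135 and ZNF132. Cluster 8 held 10, namely ZNF577, ZNF350, ZNF841, ZNF880, ZNF528, ZNF534, ZNF578, ZNF415, ZNF347 and ZNF677. The others were ZNF558, ZNF177 and ZNF560 in cluster 2, ZNF433 and ZNF625 in cluster 3, ZNF726 in cluster 4, ZNF382 in cluster 6, and ZNF234, ZNF112 and ZNF229 in cluster 7. ZNF382 and ZNF154, whose promoters are printed above, and ZNF582 are known from other cancers for methylated promoters, and ZNF350 encodes a partner of BRCA1. The ZNF382 window held 27 CpG dinucleotides at 68% GC, that of ZNF350 17 at 51.3% GC and that of ZNF154 14 at 53.3% GC. DNA methylation and expression were not analysed here.

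**Figure D2:**
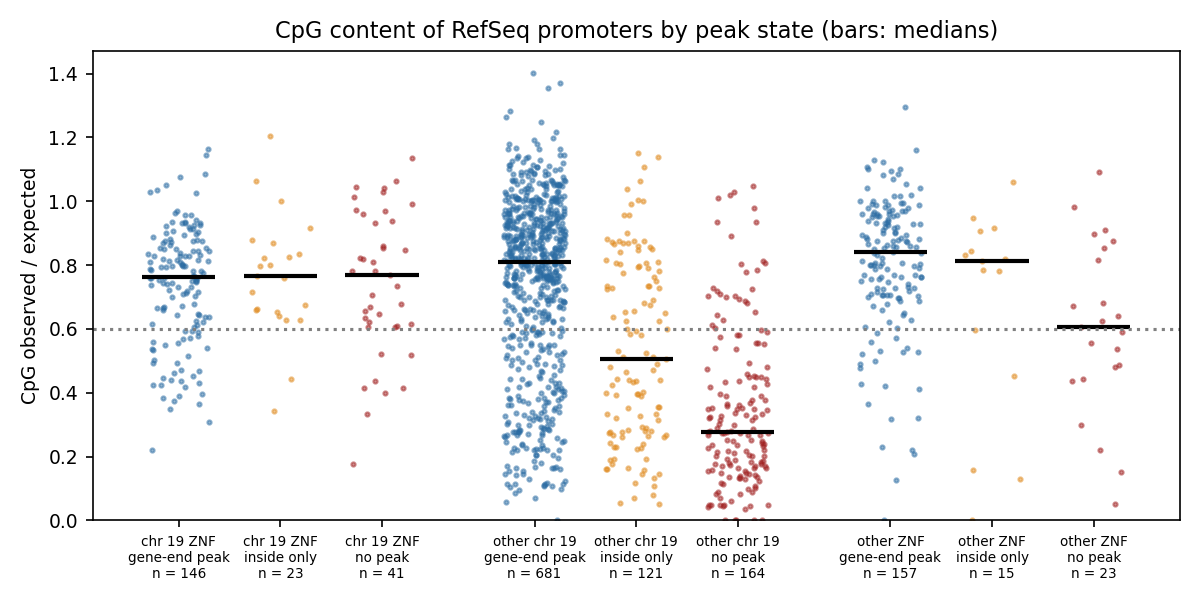
Ratio of observed to expected CpG in the RefSeq promoter (vertical) for zinc finger genes of chromosome 19, other chromosome 19 genes and ZNF genes of other chromosomes (other ZNF), each split by peak state in the 4 libraries; points are promoters, bars medians, and the dotted line is the limit of 0.6. The 3 bars of the chromosome 19 ZNF genes lie level at 0.76 to 0.77, while those of the other chromosome 19 genes step down to 0.28.

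The accessible zinc finger regions were promoters of compact shape. Of 210 genes with a RefSeq start, 160 had a peak there (76.2%), against 62.9% of the other chromosome 19 genes and 82.6% of ZNF genes elsewhere. At the far end, taken only in genes of at least 4000 bp and clear of other gene ends by 2000 bp, 5 of 186 zinc finger genes had a peak (2.69%, 0.878 to 6.16%), against 89 of 541 other genes of the chromosome (16.5%, 13.4 to 19.8%) and 6 of 171 ZNF genes elsewhere (3.51%). Where the tallest region lay at the start (134 of 146 genes), its summit in the IFN empty vector library was a median of -15 bp from the RefSeq start, on the upstream side, and in 118 of the 134 it lay within 200 bp. Peaks with more than 1 summit made up 9.93% of the zinc finger peaks with PHF19 overexpression, 12.3% with empty vector, 17.1% with IFN PHF19 overexpression and 12.8% with IFN empty vector. For the other chromosome 19 genes these shares were 24.7%, 24.1%, 25.7% and 26.8%. These shares were not taken by height class, and the zinc finger regions were lower than the others, as given below. In the deepest library, that of IFN empty vector, the peaks of the fourth height class had a median width of 1165 bp for zinc finger genes and 1410 bp for the other genes, so the peaks were narrower at like height. In the lowest class they were wider, 898 against 654.5 bp. The heights were not alike in that class, with a median of 1.15 per M for zinc finger regions and 0.675 for the others.

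The promoter letters differed from those of the rest of the chromosome in a few short motifs, each searched on both strands in the 300 bases. CCGGAAGT, the core bound by ETS factors, was in 31 of 146 accessible zinc finger promoters (21.2%), against 6.02% of accessible promoters on the rest of the chromosome, 16.6% of accessible ZNF promoters elsewhere and 6.2% of all promoters. Of zinc finger promoters without a peak, 7 of 41 held it (17.1%). CCAAT, the box bound by NFY, was in 52.9% of the 210 zinc finger promoters, 37.1% of those of the other chromosome 19 genes, 44.1% of those of ZNF genes elsewhere and 36.3% of all. TATAAA was in 1.90%, 8.07%, 4.62% and 9.64% in the same order. The CRE letters TGACGTCA were in 7 zinc finger promoters, all of them accessible (ZNF266, ZNF426, ZNF121, ZNF561, ZNF562, ZNF543 and ZNF547). Thus 3.33% of zinc finger promoters had them, against 3.42% for other chromosome 19 genes, 4.62% for ZNF genes elsewhere and 2.59% of all. GGGCGGGG was in 35.2%, against 36.4% for other chromosome 19 genes, 30.3% for ZNF genes elsewhere and 31.6% of all promoters. In the same order, the NRF1 motif was in 12.9%, against 10.4%, 14.4% and 8.59%, and AAGATGGCG in 3.33%, against 4.14%, 2.56% and 2.74%. The Kaiso motif was in 0.952%, against 0.207%, 0% and 0.67%. Of the promoters printed above, those of ZNF101, ZNF548, ZNF257 and ZNF350 held CCAAT, that of ZNF230 both CCAAT and CCGGAAGT, and that of ZNF382 the NRF1 motif. A match describes the letters and does not show binding.

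The zinc finger regions were lower than those of other genes in each library. Their median height was 4.44 per M with PHF19 overexpression, 4.68 with empty vector, 4.79 with IFN PHF19 overexpression and 4.18 with IFN empty vector. The medians of the other chromosome 19 regions were 6.09, 6.91, 6.32 and 5.39 per M, and those of ZNF genes elsewhere 6.89, 7.38, 6.90 and 5.96 per M, in that order. The ranges were wide and overlapped. The tallest of the genes was ZNF837, with 15.9 per M with PHF19 overexpression, 21.6 with empty vector, 19.4 with IFN PHF19 overexpression and 14.5 with IFN empty vector. Next by mean height came ZNF324 (15.5 per M, a region at its far end that is also the end of ZNF446), ZNF584 (12.7), ZNF556 (12.5), ZNF146 (12.3), whose product consists of zinc fingers alone, and ZNF564 (12.1). Among the genes called in all 4 libraries, ZNF649 (0.666), ZNF98 (0.766), ZNF813 (0.865), ZNF836 (0.886), ZNF792 (0.911) and ZNF606 (0.93 per M) were the lowest.

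**Figure D3:**
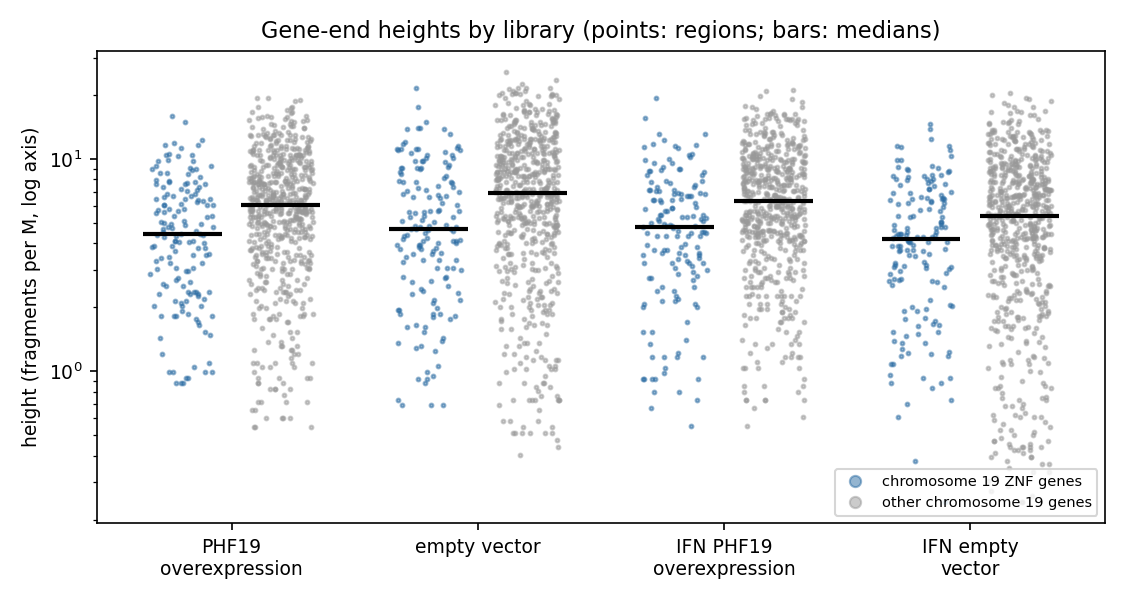
Height of gene-end regions in fragments per M (vertical, log axis) in the 4 libraries, for zinc finger genes of chromosome 19 (blue, left) and other genes of chromosome 19 (grey, right); points are regions and bars medians. In each library the blue bar, at 4.18 to 4.79 per M, lies below the grey bar, at 5.39 to 6.91 per M, while the points overlap.

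With PHF19 overexpression the heights of the zinc finger regions differed little from those with empty vector, and by about as much as other regions of like height. The libraries with PHF19 overexpression and with empty vector are called the PHF19 pair, and the IFN-prefixed ones the IFN PHF19 pair. From each log2 height ratio the median over every region called in both libraries was subtracted, which was -0.11 for the PHF19 pair and 0.17 for the IFN PHF19 pair. Over 151 regions the median ratio of PHF19 overexpression to empty vector was -0.07 (-0.12 to -0.02, from the ranks of the regions), and it turned to 0.02 when the median of neighbouring regions within 2.5 Mb was removed. It was -0.13 for the other chromosome 19 regions and -0.05 for all genes. Set against other chromosome 19 regions of the same height class, the difference was 0.01 (-0.03 to 0.07), with 79 zinc finger regions above and 72 below. Over 152 regions the median ratio of IFN PHF19 overexpression to IFN empty vector was -0.05 (-0.08 to 0.00), and it was 0.01 with the neighbouring median removed. It was -0.04 for the other chromosome 19 regions and 0.02 for all genes, and the difference at like height was -0.04 (-0.09 to 0.03). Height itself moved with the first ratio: in the PHF19 pair the median was 0.15 in the lowest height class of zinc finger regions and -0.12 in the tallest, and 0.14 and -0.18 in the same classes of other chromosome 19 regions.

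Few single genes passed a 1.5-fold difference. In the PHF19 pair 3 of 151 regions were higher past it, against a background of 4.44%, and 2 were lower, against 2.3%. In the IFN PHF19 pair 0 of 152 were higher, against 4.86%, and 3 were lower, against 2.43%. The higher ones in the PHF19 pair were all low regions. ZNF665 had 2.30 per M with PHF19 overexpression and 0.987 with empty vector, 1.40 with IFN PHF19 overexpression and 1.21 with IFN empty vector. Its ratio was 1.33 (0.60 to 2.09) in the first pair and 0.04 (-0.69 to 0.73) in the IFN pair, so the PHF19 overexpression library alone stood high. ZNF606 had 1.48 per M with PHF19 overexpression and 0.731 with empty vector, 0.672 with IFN PHF19 overexpression and 0.835 with IFN empty vector, with ratios of 1.13 (0.24 to 2.04) and -0.48 (-1.56 to 0.47). ZNF649 rested on 19 and 19 fragments in the first pair, and its interval of -0.30 to 1.69 covered 0.

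The lower genes differed between the pairs. ZNF85 had 40 fragments with PHF19 overexpression and 104 with empty vector, or 2.19 and 3.80 per M, and 3.54 per M with IFN PHF19 overexpression and 3.57 with IFN empty vector. Its ratios were -0.68 (-1.25 to -0.14) and -0.18 (-0.62 to 0.24), the PHF19 overexpression library alone being low. ZNF536 was at -0.76 (-1.69 to 0.09) and -0.54 (-1.44 to 0.27), on 15 and 16 fragments in the PHF19 libraries. In the IFN PHF19 pair ZNF222 was at -1.05 (-2.06 to -0.17), ZNF714 at -0.96 (-1.73 to -0.26) and ZNF737 at -0.62 (-0.99 to -0.27), and in the PHF19 pair these 3 were at 0.28, 0.12 and -0.14. ZNF714 and ZNF737 were lowest in the IFN PHF19 overexpression library, at 1.16 and 4.70 per M, against 2.00 and 6.43 per M with IFN empty vector.

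The 2 PHF19 pairs share no library, so a difference seen in both does not rest on 1 library. Of 151 zinc finger regions, 30 were higher in both, 58 were lower in both, and 0 passed 1.5-fold in both in either direction, against 1.99% higher and 1.09% lower over all genes. Across regions the ratios of the pairs had a Spearman correlation of 0.21 for zinc finger regions (151), 0.38 for the other chromosome 19 regions (568), 0.42 for ZNF genes elsewhere (174) and 0.50 for all genes (10111). Regions of a library share its depth, and low regions add counting error, so these are descriptions only. The interval of the ratio was clear of 0 in both pairs for 1 gene in the higher direction, against 6.07% of all genes, and for 2 in the lower direction, against 3.99%.

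ZNF181 was the higher gene. Its region at chr19:34733453-34734697 had 134 fragments with PHF19 overexpression and 157 with empty vector, 129 with IFN PHF19 overexpression and 331 with IFN empty vector. As heights these were 7.35 and 5.74 per M in the first pair and 7.88 and 5.02 per M in the IFN pair. Both PHF19 libraries thus stood above both empty vector libraries, with ratios of 0.47 (0.13 to 0.81) and 0.48 (0.18 to 0.78). Its RefSeq start lies within the region, in the window with 28 CpG dinucleotides printed above.

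ZNF101 and ZNF548 were the lower genes. ZNF101 had 6.47 per M with PHF19 overexpression and 10.05 with empty vector, 7.51 with IFN PHF19 overexpression and 8.27 with IFN empty vector, and ratios of -0.52 (-0.85 to -0.21) and -0.31 (-0.60 to -0.02). ZNF548 had 7.68 per M with PHF19 overexpression and 10.63 with empty vector, 7.39 with IFN PHF19 overexpression and 8.06 with IFN empty vector, and ratios of -0.36 (-0.66 to -0.06) and -0.29 (-0.59 to -0.01). For both genes each PHF19 library lay below both empty vector libraries. The IFN pair's intervals ended near 0, and without centring, or with the neighbouring median removed, they covered 0 for both genes, so that 0 genes were clear of 0 in the lower direction in both pairs. The region of ZNF101 was at chr19:19668178-19669556 and that of ZNF548 at chr19:57389485-57390559, and both covered the RefSeq start.

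The other genes with the largest shared difference had intervals that covered 0 in at least 1 pair. On the higher side these were ZNF701, whose ratios were 0.48 and 0.34 and whose region lay past its far end while its RefSeq start had no peak, ZNF175 (0.32 and 0.46, but -0.10 and 0.05 with a window of 2000 bp), ZNF579 (0.30 and 0.24), ZNF709 (0.27 and 0.19) and ZNF480 (0.18 and 0.46). On the lower side they were ZNF536, given above, ZNF417 (-0.50 and -0.37), ZNF492 (-0.36 and -0.53) and ZNF776 (-0.50 and -0.33).

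**Figure D4:**
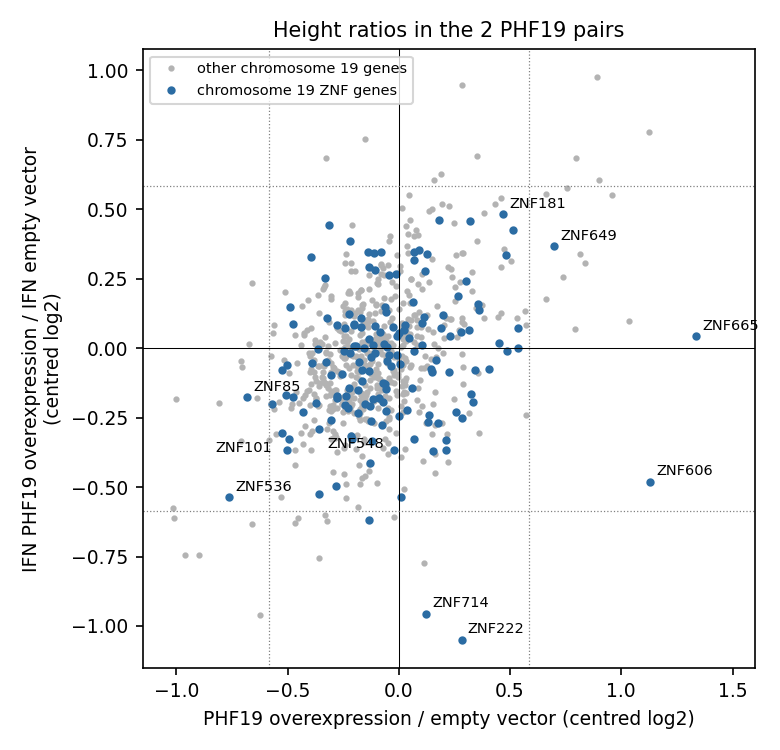
Centred log2 height ratio of PHF19 overexpression to empty vector (horizontal) against that of IFN PHF19 overexpression to IFN empty vector (vertical); blue points are the 151 zinc finger regions with both ratios, grey points other chromosome 19 regions, and dotted lines mark 1.5-fold. No blue point lies past the dotted lines in both pairs in the same direction, and ZNF665 and ZNF606 lie far out in the first pair alone.

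Along the chromosome 231 of the 240 genes lay in 9 clusters, where members less than 1 Mb apart were joined and at least 5 members were required. Genes with and without a gene-end peak lay interspersed. Of 239 pairs of neighbours, 112 were both accessible at an end, 29 both lacked a gene-end peak, and 98 were mixed. The longest stretch without a gene-end peak held 5 genes, from ZNF610 to ZNF578, and the longest accessible stretches held 11, from ZNF426 to ZNF440 and from ZNF66 to ZNF43. The share of genes with a gene-end peak was lowest in cluster 5 (2 of 5) and cluster 7 (13 of 24), and all 5 genes of cluster 1 had one. The median height was highest in cluster 1, at 8.65 per M, and lowest in cluster 7 (43.5 to 45.1 Mb), at 1.71 per M. Within cluster 7, 16 other genes were accessible. Those of their regions that no zinc finger gene shared had a median of 5.92 per M.

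The median PHF19 ratio varied between clusters. In cluster 8 (51.6 to 53.6 Mb) the median was 0.14 in the PHF19 pair, with 14 of 24 regions above 0, and 0.07 in the IFN pair, with 16 of 25 above, and removing the median of neighbouring regions gave 0.22 and 0.09. In cluster 4 (19.7 to 24.1 Mb), which holds ZNF91, ZNF93 and ZNF101, it was -0.10 with 8 of 24 above 0, and -0.24 with 3 of 24 above, or -0.02 and -0.12 with the neighbouring median removed. Both pairs thus put cluster 8 above and cluster 4 below the median of all regions. Cluster 2 had -0.17 in both pairs, with 3 and 2 of 11 above, or -0.03 and -0.06 with the neighbouring median removed, while 24 other regions within it had -0.20 and -0.01. Cluster 9, the largest with 57 genes, had -0.11 and -0.03, which turned to 0.01 and 0.03 with the neighbouring median removed. The 2 regions of cluster 5, ZNF181 and ZNF792, were both above 0 in both pairs, ZNF792 on 40 fragments or fewer per library. The clusters other than 2, 7 and 9 held too few other genes for a comparison, so a difference of the zinc finger genes and one of the whole stretch cannot be told apart there.

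**Figure D5:**
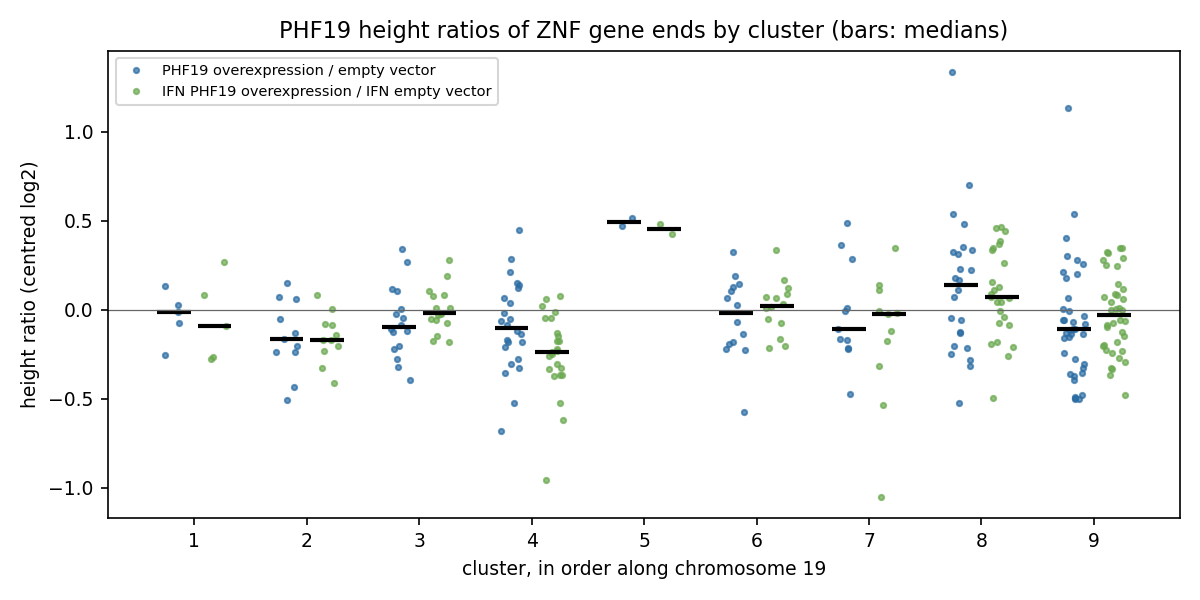
Centred log2 height ratios of zinc finger regions (vertical) by cluster in order along chromosome 19 (horizontal), for PHF19 overexpression over empty vector (blue) and IFN PHF19 overexpression over IFN empty vector (green); points are regions and bars medians. Cluster 4 lies lowest in the IFN pair, with 3 of 24 regions above 0, and both bars of cluster 8 lie above 0.

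Calls in 1 library of a pair were few. In the PHF19 pair 0 of 160 genes were called with PHF19 overexpression alone, against 1.68%, and 3 with empty vector alone, against 2.79%. In the IFN PHF19 pair 0 of 162 were called with IFN PHF19 overexpression alone, against 0.551%, and 4 with IFN empty vector alone, against 5.62%. Between the PHF19 libraries 1 of 158 was called with the IFN prefix alone, against 1.8%, and 0 without it alone, against 1.45%. Between the empty vector libraries 2 of 162 were called with the prefix alone, against 4.7%, and 0 without it alone, against 0.36%. ZNF257 and ZNF230 were called in both empty vector libraries and neither PHF19 library, as were 1.48% of all genes with a gene-end region, and 0 zinc finger genes showed the reverse, against 0.228%. ZNF257 had 45 fragments with empty vector and 89 with IFN empty vector, or 1.64 and 1.35 per M. ZNF230 had 36 and 71 fragments in those libraries, or 1.32 and 1.08 per M. At the empty vector height, the depth of the PHF19 overexpression library would give 30.0 fragments for ZNF257 and 24.0 for ZNF230, and that of the IFN PHF19 overexpression library 26.9 and 21.5, above the 8 fragments of their lowest called peaks. How many fragments lay there in the PHF19 libraries is not given in a peak list. A height above the lowest called peak did not ensure a call. At the empty vector height ZNF28 would have 16.7 fragments with PHF19 overexpression, where it was not called. At the IFN empty vector height ZNF574 would have 25.3 fragments with empty vector and was not called there, the lowest called peak having 10. Why such calls are missing was not tested. ZNF28 lacked a call with PHF19 overexpression alone, at 0.916 per M in the IFN PHF19 overexpression library, 0.914 with empty vector and 0.926 with IFN empty vector. ZNF574 and ZNF284 were called at a gene end only with IFN empty vector, at 61 and 16 fragments, and ZNF574 had a region of 15.1 per M inside the gene.

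The IFN-prefixed libraries were compared with those without the prefix for each vector. Over 151 regions the median ratio of IFN PHF19 overexpression to PHF19 overexpression was -0.05 (-0.09 to -0.02), which turned to 0.01 when centred on gene-end regions, and that of other chromosome 19 regions was -0.06. Over 154 regions the median ratio of IFN empty vector to empty vector was -0.15 (-0.20 to -0.11), against -0.22 on the rest of the chromosome and -0.20 over all genes, and it turned to 0.05 when centred on gene-end regions. At like height the difference was 0.06 (0.01 to 0.11), with 90 regions above and 63 below, so the zinc finger regions lay slightly above other regions of like height in this ratio. With PHF19 overexpression the difference at like height was 0.01 (-0.03 to 0.07).

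Past 1.5-fold, 0 zinc finger regions were higher with IFN PHF19 overexpression than with PHF19 overexpression, against 0.958%, and 7 were lower, against 1.4%: ZNF606, ZNF714, ZNF649, ZNF665, ZNF43, ZNF681 and ZNF71. The count was 4 at RefSeq starts and 4 with a -log10 q of at least 5. Of the 7, ZNF665, ZNF606 and ZNF649 are the ones that stood high in the PHF19 overexpression library, which this comparison shares. With IFN empty vector against empty vector, ZNF222 was higher (0.71, 0.04 to 1.42; background 0.735%), and ZNF649 (-0.79) and ZNF653 (-0.62, -0.82 to -0.43) were lower (background 1.2%). ZNF653 was the tall one, with 8.42 per M with IFN empty vector and 13.8 with empty vector, 10.0 with IFN PHF19 overexpression and 10.5 with PHF19 overexpression. The empty vector library alone stood high at this gene.

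The IFN-prefix pairs also share no library. Of 151 zinc finger regions 19 were higher in both and 71 lower in both, and the Spearman correlation was 0.03. Past 1.5-fold in both were 0 in the higher direction, against 0.108%, and 1, ZNF649, in the lower direction, against 0.0334%, on 9 to 25 fragments and with intervals that covered 0. No interval was clear of 0 in both pairs, against 0.0751% higher and 2.4% lower over all genes; centred on gene-end regions, or with the neighbouring median removed, that of 1 gene, ZNF763, was clear in the higher direction. The genes with the largest shared ratio, given for PHF19 overexpression and then for empty vector, were ZNF671 (0.24 and 0.25), ZNF763 (0.48 and 0.19), ZNF491 (0.20 and 0.18) and ZNF562 (0.30 and 0.16) on the higher side. On the lower side they were ZNF490 (-0.33 and -0.32), ZNF43 (-0.76 and -0.30, the first being 0.19 at its RefSeq start), ZNF699 (-0.27 and -0.38) and ZNF865 (-0.26 and -0.39).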

How the data were processed

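Peaks were called by the authors in each library with MACS2 2.1.2 at a q of 0.01, keeping duplicates, without a control, per the file headers. Trimmomatic 0.38, bcl2fastq 2.17, DiffBind and the build hg38 are listed in the submitters' processing notes. Which aligner and read filters were used, and whether Tn5 cut sites were shifted, is not stated in those notes, the labels or the headers. The deposited pileup is an unscaled signal, the fragment coverage at the summit, per the file headers. For each peak the authors also give a -log10 of its p-value and of its q-value and a fold enrichment, a ratio to local background. The -log10 q was used in an alternative filter, and the fold enrichment was not compared between libraries. Because duplicates were kept, fragments need not be separate molecules, which the counting intervals do not cover.

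Peaks that overlapped by at least 1 bp across libraries were merged into regions, and the height was the tallest pileup per M fragments of the header. A gene took the region with the greatest mean height among those with a peak within 1000 bp of either end. Gene coordinates were those of RefSeq on the build of the files, and promoters (250 bases before to 50 after the start) from RefSeq on GRCh38.p14. Log2 ratios carry an exact interval for a ratio of counts, and shares carry Clopper-Pearson intervals. Other chromosome 19 regions were put into 5 height classes cut so that each held an equal number of zinc finger regions. Shared regions entered medians and counts of zinc finger regions once, while the percentages over all genes count every gene. The genes and lists were chosen with earlier results of these data known. Named genes were the 6 tallest and 6 lowest called in all 4 libraries, per direction the 6 (PHF19) or 4 (IFN prefix) with the largest smaller ratio in both pairs and a mean height of at least 1 per M, up to 4 per direction called in 1 library of a pair, the first 10 by position without a gene-end peak, and 12 widely known genes; those past 1.5-fold and those without a peak in CpG-rich promoters were named after their values were seen. Alternatives changed windows, centring, peak filters, region choice, height classes and overlap. Steps were tested on simulated data and run with Python 3.11.15, pandas 2.3.3, numpy 2.4.6, scipy 1.17.1 and matplotlib 3.10.9.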

Additional observations from a re-analysis of the deposited data

How the results depend on the processing

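The like-height differences kept within their intervals under every alternative run: 500 and 2000 bp windows, the local median removed, a -log10 q of at least 5, each library's own tallest peak, shared regions left out, the RefSeq start only, 10 height classes, and, added after seeing the data, lettered symbols. A centring that shifts a whole pair cancels in them. They ranged from 0.01 to 0.02 for the PHF19 pair, -0.05 to -0.02 for the IFN PHF19 pair, 0.04 to 0.08 for the empty vector libraries and -0.0019 to 0.04 for the PHF19 libraries. The uncompared medians depended on the centring. Without centring they were -0.18 for the PHF19 pair, 0.12 for the IFN PHF19 pair, -0.24 for IFN empty vector over empty vector and 0.065 for IFN PHF19 overexpression over PHF19 overexpression. Centred on gene-end regions, the first was -0.016, the third 0.046 and the fourth 0.010. With the local median removed, the first was 0.025, the second 0.0071 and the third -0.037. The construction of these centrings shifts every region of a pair or stretch together. With an overlap of at least 50% of the shorter peak, 2 instead of 1 genes were called with IFN PHF19 overexpression alone against PHF19 overexpression. Counts past 1.5-fold were small and moved. Without centring, 12 instead of 2 zinc finger regions were lower in the PHF19 pair, 5 instead of 0 higher in the IFN PHF19 pair, 4 instead of 0 higher between the PHF19 libraries and 4 instead of 2 lower between the empty vector libraries. Centred on gene-end regions, 5 instead of 3 were higher in the PHF19 pair and 2 instead of 0 between the PHF19 libraries. At RefSeq starts or with a -log10 q of at least 5, 4 instead of 7 were lower between the PHF19 libraries. Other changes by more than 1.5 times were of 1 region, except 5 instead of 3 higher in the PHF19 pair with the local median removed. In an alternative added after seeing the data, ZNF181 was clear of 0 in both pairs under all 3 other centrings. In the IFN pair ZNF101 and ZNF548 were at -0.14 and -0.12 without centring and at -0.25 and -0.23 with the local median removed, with upper bounds of 0.15, 0.16, 0.03 and 0.06. Shares of genes with a peak ranged from 64.6 to 70.0%. The share of CpG-rich promoters without a peak ranged from 15.8 to 24.1% over stricter CpG limits, stricter peaks and the RefSeq start, all added after seeing the data. With stricter CpG limits the interval of 9.33 to 24.4% overlapped that of ZNF genes elsewhere (1.97 to 11.2%) and not that of other chromosome 19 genes (1.38 to 4.58%). No paired analysis was possible because the groups share no more than 1 replicate number and the results come from no test. Depth limited the low regions: 12 genes had a mean height under 1 per M.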

Other observations

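The genes through which KRAB zinc finger proteins act were accessible in AMO1 cells. Of 25 corepressors and chromatin enzymes, 24 had a gene-end peak in every library, and UHRF1, which guides the maintenance DNA methyltransferase, had none. Their median ratio was -0.08 for PHF19 overexpression over empty vector and -0.01 for IFN PHF19 overexpression over IFN empty vector, with 0 of 24 past 1.5-fold in either pair. TRIM28, the corepressor itself, had 8.89 per M with PHF19 overexpression and 13.3 with empty vector, 11.3 with IFN PHF19 overexpression and 9.73 with IFN empty vector. Its ratios were -0.47 (-0.74 to -0.20) and 0.05 (-0.20 to 0.29), so the first pair alone showed a difference. SETDB1 had 27.4 per M with PHF19 overexpression and 25.2 with empty vector, 28.8 with IFN PHF19 overexpression and 20.1 with IFN empty vector. Its ratios were 0.23 (0.06 to 0.40) and 0.35 (0.19 to 0.50), above 0 in both pairs. CBX1 of the same list went the other way, at -0.29 (-0.51 to -0.08) and -0.25 (-0.47 to -0.03). Both results depended on the centring, which subtracted -0.11 in the PHF19 pair and 0.17 in the IFN PHF19 pair. Without it the interval of SETDB1 in the PHF19 pair and that of CBX1 in the IFN PHF19 pair would cover 0. Over all genes the interval lay above 0 in both PHF19 pairs for 6.07% and below 0 in both for 3.99%.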
